A study of Homo sapiens with 40 samples.

Results

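CENP-A ChIP-Seq was compared between SW480 cells that received siRNA against HJURP and SW480 cells of the control group, with the peak lists set against each other peak by peak. SW480 is an established human colon cancer line that overexpresses CENP-A, so every value comes from 1 cell line. In both groups siRNA was delivered by electroporation, cells were harvested after 72 hours, and chromatin was released by MNase without crosslinking. The ChIP used ACA serum, which is human serum with antibodies against centromere proteins. The labels describe the control cells as untreated, and the methods of the study name a control siRNA. The labels give 4 ChIP and 4 input libraries for each group. The HJURP knockdown list held 940 peaks and the control list 408, which is 1348 of the 5748 peaks in the 6 lists of the series. Peaks of both lists that shared at least 1 base, directly or through a chain of peaks, were taken as 1 site, which gave 972 sites. A site was kept when both lists had a peak, new when only the HJURP knockdown had one, and lost when only control had one. Each list merges the replicates of a group and holds positions on hg19 alone, with no height, score or count. There is therefore no replicate error and no test between the groups, and the depth behind a peak is unknown from the lists. The study gives read depths by sample, which varied between replicates, and sequenced in single- or paired-end mode. Those depths were not used here. The title of a control ChIP library holds the word resent and that of an HJURP ChIP library the word New, without explanation. The study also called peaks on random samples of equal read depth and reports similar results for ectopic coverage. Those calls are not in the lists used here. Shares of sites carry 95% Wilson intervals, which cover counting error only, and neighbouring sites are not independent.

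CENP-A is the histone H3 variant that marks centromeres and on which the kinetochore is built. HJURP is its dedicated chaperone and deposits CENP-A at centromeres, while HIRA and DAXX are chaperones of the H3.3 variant, which is placed outside the DNA replication step along the arms and at telomeres and heterochromatic repeats. CENP-A made in excess, as in many tumours, can be placed outside centromeres. Human centromeres consist of alpha satellite, a tandem repeat of AT-rich units, part of which carries the CENP-B box, the binding site of the centromere protein CENP-B. Other satellites, among them repeats of GGAAT, lie in the flanking heterochromatin. The knockdown rests on the siRNA shown here, with the bases that match its target in capitals, beside the control siRNA, which had no full-length match in the hg19 genome or in the annotated transcripts.
HJURP siRNA: CUACUGGGCUCAACUGCAAuu
Control siRNA: caugucauguucacaucuc
The 19 capital bases matched the genome once, on the minus strand of chr2:234749460-234749478. This is coding sequence of HJURP, in exon 8, 6 or 5 of its 3 matching transcripts (HJURP-202, HJURP-204 and HJURP-207). The peak lists hold no measure of HJURP mRNA or protein, so the depletion itself was not checked here.

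Of the 497 sites in or near centromeres, 294 held a CENP-B box core, a GGAAT repeat or the tandem repeat measure of alpha satellite described after the sequences, and 203 held none of these. Printed here are the central 300 bases of the widest new site inside a centromere band, of the widest lost site, and of the pericentromeric site that gained the most bases, all on the plus strand of hg19. They are shown as examples of the repeats at which peaks were new, lost or widened. Of the 220 new sites there, 113 had none of the features, as had 31 of the 64 lost sites. Capitals mark each run of adjacent GGAAT units, called a GGAAT repeat from here on.
Widest new centromeric site, chr19:24562948-24563247: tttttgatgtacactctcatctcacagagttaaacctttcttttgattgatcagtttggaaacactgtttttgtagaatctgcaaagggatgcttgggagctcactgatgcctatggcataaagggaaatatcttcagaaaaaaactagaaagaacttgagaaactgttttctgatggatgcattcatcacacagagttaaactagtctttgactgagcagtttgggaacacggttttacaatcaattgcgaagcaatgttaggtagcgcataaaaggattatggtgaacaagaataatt
Widest lost site, chr16:32555589-32555888: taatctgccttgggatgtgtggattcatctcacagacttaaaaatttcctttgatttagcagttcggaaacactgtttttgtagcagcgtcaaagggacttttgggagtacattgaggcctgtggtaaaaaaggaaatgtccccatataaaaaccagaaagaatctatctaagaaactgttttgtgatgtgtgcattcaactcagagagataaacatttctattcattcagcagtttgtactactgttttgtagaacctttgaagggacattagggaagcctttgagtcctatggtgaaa
Most widened pericentromeric site, chr21:10856808-10857107: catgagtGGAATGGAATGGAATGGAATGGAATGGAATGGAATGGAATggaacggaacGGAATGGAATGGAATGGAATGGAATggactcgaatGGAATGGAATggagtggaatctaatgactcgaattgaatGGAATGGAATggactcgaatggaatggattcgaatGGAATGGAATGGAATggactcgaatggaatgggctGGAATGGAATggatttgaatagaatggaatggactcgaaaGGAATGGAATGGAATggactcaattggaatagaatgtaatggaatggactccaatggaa
The whole sites lay at chr19:24560987-24565209, chr16:32549157-32562320 and chr21:10855182-10858733, and none overlapped an annotated protein-coding or lncRNA gene. In the first, 54.8% of the central 1000 bases were identical to the base 1 alpha satellite unit further on, at the best of the unit lengths tried, and in the second 51.3% were. A tandem repeat with a unit of alpha satellite length gives such a value. Among all 1000-bp tiles of hg19 without undetermined bases (n = 2858365), the median was 29.2% and 0.264% of tiles passed 50%. The third window held 18 overlapping pairs of adjacent GGAAT units in its 300 bases. None of these windows held a CENP-B box core, written NTTCGNNNNANNCGGGN and searched on both strands.
CENP-B boxes did occur in the site with the fourth largest loss among kept sites, chr7:61079030-61085835, where 7 matches lay in 6806 control bases. Its first and sixth box follow, with the bases that the core fixes in capitals.
Box 1, chr7:61079874-61079890: tTTCGtttcAaaCGGGa
Box 6, chr7:61084818-61084834: cTTCGctggAaaCGGGt
The other sites among the 5 largest losses held no such match over their whole length.

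Most sites of the comparison were new. The control list was the shortest of the 6 lists of the series, with 408 peaks against 848 to 1582 in the others. Of the 972 sites, 622 were new (64.0%, 95% interval 60.9% to 66.9%), 275 were kept and 75 were lost. The lost sites made up 21.4% of the 350 sites with a control peak (17.5% to 26.0%). Among the kept sites, 159 covered more bases in the HJURP knockdown (57.8%, 51.9% to 63.5%), 115 covered fewer and 1 was equal. Peak coverage, the sum of end minus start, was 552.7 kb in control and 1125 kb in the HJURP knockdown, a ratio of 2.04. New sites brought 583.1 kb and widening 134.0 kb, while narrowing took 57.5 kb and lost sites 86.9 kb. New sites thus gave 81.3% of the bases gained. A new site had a median width of 713.5 bp and a lost site of 540 bp. At kept sites the median ratio of knockdown to control bases was 1.02, with quartiles of 0.916 and 1.33.

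The shares differed by region. Sites were placed in 4 classes, which were those touching a centromere band, those outside the band but within 5 Mb of the assembly's centromere gap (pericentromeric), those in 8q24, the amplified region of SW480 that contains the MYC oncogene, and those elsewhere on the arms. In 8q24, 318 of 372 sites were new (85.5%, 81.5% to 88.7%), 53 were kept and 1 was lost. On the other arm regions, 84 of 103 sites were new (81.6%, 73.0% to 87.9%). The pericentromeric class had 143 new sites of 306 (46.7%, 41.2% to 52.3%) and the centromere bands 77 of 191 (40.3%, 33.6% to 47.4%). The share of control sites that was lost was 1.85% in 8q24 (1 of 54), 21.9% in the bands (25 of 114), 23.9% in the pericentromeric class (39 of 163) and 52.6% elsewhere on the arms (10 of 19).

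**Figure D1:**
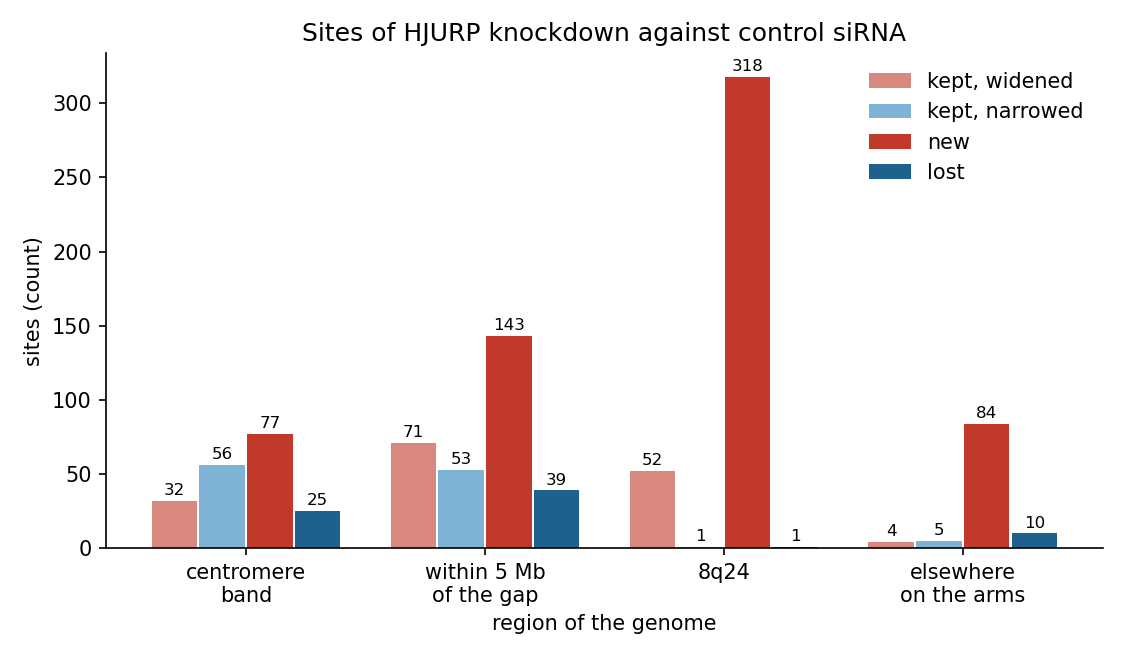
Number of kept sites that widened or narrowed, new sites and lost sites (vertical axis, counts) in the HJURP knockdown against control, for 4 regions of the genome. The 318 new sites of 8q24 form the tallest bar, and 1 control site was lost there, against 39 in the pericentromeric class. The 1 kept site of equal size, in a centromere band, is not drawn.

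Kept sites in 8q24 widened almost without exception, whereas those near centromeres moved both ways. Of the 53 kept sites in 8q24, 52 covered more bases in the HJURP knockdown, with a median ratio of 2.32 and quartiles of 1.33 and 4.03, and 36 grew at least 1.5 times. The single site that narrowed went from 1810 to 1777 bases, at chr8:129287573-129289410. In the centromere bands, 32 of 89 kept sites widened and 56 narrowed, with a median ratio of 0.973. Only 2 of the 89 grew at least 1.5 times, and 17 shrank to that extent. In the pericentromeric class 71 of 124 widened and 53 narrowed, with a median ratio of 1.02. Over all sites outside 8q24, 107 widened and 114 narrowed (median ratio 0.995).
The bases at kept sites of the centromere bands summed to 132.8 kb in control and 112.2 kb in the knockdown. With the new sites, total coverage in the bands was still slightly higher in the knockdown, at 171.9 kb against 155.8 kb. In 8q24 the total went from 84.5 to 565.8 kb, of which 376.6 kb lay in new sites and 105.2 kb came from widening. Elsewhere on the arms it was 19.0 and 58.6 kb, and in the pericentromeric class 293.4 and 329.1 kb. The study counted 8q24 loci in mitotic cells by in situ hybridization. It reports more loci per cell after HJURP siRNA than after control siRNA. The part of copy number in the 8q24 values was not tested.
In 8q24, narrow control sites grew by a larger ratio than wide ones. The control bases that split the sites are also the denominator of this ratio. An equal gain in bases therefore gives a narrow site the larger ratio. There, all 26 kept sites with under 1000 control bases widened, with a median ratio of 4.37, and 26 of the 27 with 1000 or more did, with a median ratio of 1.50. Outside 8q24 the share that widened was 47.9% among sites under 1000 bases and 48.6% among the 105 larger ones. Of the 17 kept sites outside 8q24 with at least 5000 control bases, 5 widened and 12 narrowed.

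**Figure D2:**
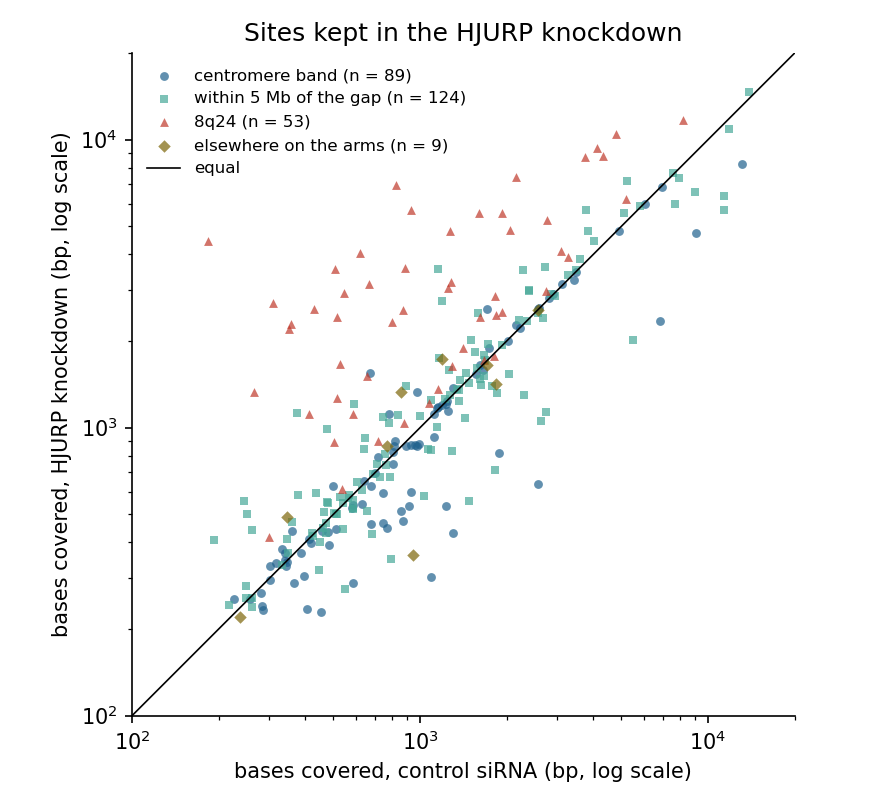
Bases covered at each of the 275 kept sites in control (horizontal axis, bp, log scale) and in the HJURP knockdown (vertical axis, bp, log scale), by region. Triangles of 8q24 lie above the line of equal size at 52 of 53 sites, while sites of the centromere bands lie on both sides of it.

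In 8q24 the knockdown peak mostly reached past both ends of the control peak that it matched. Peaks were merged over the replicates of a group, so an end can rest on 1 replicate. Where 1 control peak matched 1 knockdown peak, which was so at 37 sites of 8q24, the knockdown peak extended past both control ends at 32 and past 1 end at 5. The median extension was 365 bp at the left end and 375 bp at the right, and the median gain per peak was 859 bp. For the 77 such pairs in the centromere bands the median change was -19 bp, and for the 91 pericentromeric pairs it was 11 bp. Over the genome, 31 kept sites joined several control peaks into 1 knockdown peak, 24 split 1 control peak into several, and 6 had several of both.
The kept site with the largest gain, chr8:129272639-129279599, held a control peak of 826 bp and a knockdown peak of 6961 bp, 528 kb past the MYC start. At chr8:129594639-129605104, a knockdown peak of 10466 bp joined 3 control peaks that together covered 4790 bp. At chr8:128087197-128094628, which reaches the start of PRNCR1 and lies within CASC19 and PCAT1, 3 control peaks summed to 2151 bp and 1 knockdown peak spanned 7432 bp. At chr8:129607929-129617268, 4 control peaks of 4105 bp in all lay under 1 knockdown peak of 9340 bp. The fifth, chr8:128354569-128363245 within CASC8, PCAT1 and POU5F1B, grew from 3745 to 8677 bp. At 3 of these 5 sites, several control peaks were replaced by 1.

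New peaks in 8q24 lay between the outermost control peaks. The 81 control peaks there ran from chr8:126685154 to chr8:129617129, a span of 2.93 Mb of which they covered 2.88%. The 372 knockdown peaks spanned 2.93 Mb too and covered 19.3% of it, and all 318 new sites lay inside the control span. The median space between peaks was 3.61 kb in control and 0.921 kb in the knockdown, and the median peak was 807 bp and 1075 bp wide. A new site of 8q24 lay a median of 12.2 kb from the nearest control peak, and 144 of the 318 lay within 10 kb of one. With sites within 10 kb joined, 8q24 held 40 clusters, of which 26 had no control peak.
The densest part was 500 to 750 kb before the MYC start, where coverage was 32.8 kb in control and 158.4 kb in the knockdown, or 63.4% of that 250-kb bin. The bin before it, 750 to 1000 kb upstream, had no control peak and 28 new sites with 33.8 kb. From 250 to 500 kb upstream coverage was 5.61 and 81.9 kb. The last 250 kb before MYC had 8 new sites with 10.5 kb and no control peak, and the first 250 kb past the MYC start had no peak in either list. Coverage resumed downstream, with 2.88 and 28.0 kb from 250 to 500 kb, 12.3 and 95.4 kb from 500 to 750 kb, and 15.8 and 47.9 kb from 750 to 1000 kb. The peak nearest to MYC was 386.8 kb away in control and 24.7 kb away in the knockdown, and no peak overlapped MYC itself.

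**Figure D3:**
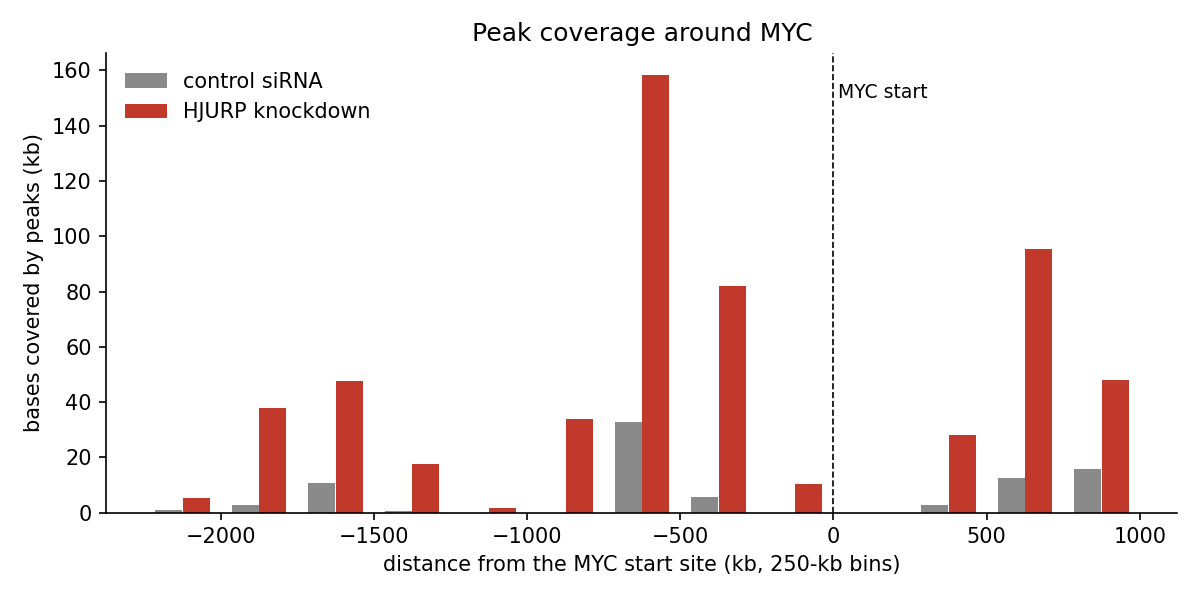
Bases covered by peaks (vertical axis, kb) in 250-kb bins by distance from the MYC start site (horizontal axis, kb, negative upstream), for control (grey) and HJURP knockdown (red). The knockdown bar is higher in every bin that holds a peak, and the bin that starts at MYC is empty in both.

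The genes with most bases in new sites were mainly long non-coding RNA genes of 8q24, several of which are named for cancers in which they were found. In 8q24, 20.4% of new and 18.9% of kept sites were intergenic by their central 1000 bases, against 37.9% of all tiles. The share of the 8q24 span that annotated genes cover was not computed, so the placement in these genes has no local background. In all, 114 annotated genes overlapped a site, 74 of them a new one, and 50 had a new site and no control peak. Of all sites, 64.0% were new. PCAT1, a prostate cancer associated lncRNA gene whose annotated extent here is 862.7 kb, held 147 new sites and 23 kept ones, all widened, and its coverage was 38.4 kb in control and 275.9 kb in the knockdown. CASC19, which overlaps it, had 42 new sites and 11.6 against 83.4 kb, and CASC8 had 34 new sites and 5.31 against 58.2 kb. Both overlap PCAT1, so the bases of the 3 genes must not be added. LINC00861 went from 13.1 to 59.5 kb with 37 new sites, and it held the only control site of the region that was lost, of 507 bp. POU5F1B, a retrogene related to the pluripotency factor OCT4, is annotated over 97.9 kb that lie within CASC8 and overlap PCAT1. It had 27 new sites and 4.01 against 50.1 kb, which are already counted in CASC8. LINC02964 (5.72 and 49.5 kb), LINC00824 (6.03 and 26.3 kb) and ENSG00000286034 (2.47 and 23.0 kb) followed. LINC02964 overlaps LINC00861, so their bases must not be added either. PVT1, the lncRNA gene next to MYC, had 9 new sites and 1.04 against 13.1 kb. The tenth gene, HERC2P3 on chromosome 15, lies at a centromere band and had 7 new sites, with 2.91 kb in control and 10.9 kb in the knockdown.
Of a list of 19 genes of 8q24, 15 were in the annotation by these names, 9 had a control peak and 11 a knockdown peak. The 2 that had a peak in the knockdown alone were CCAT2 and CASC11, with 0.265 and 0.351 kb. MYC, TRIB1, LRATD2 and GSDMC had none in either list. Of a list of 16 genes for histone chaperones and centromere proteins, 15 had no peak at all, as was so of nearly all genes, since 0.0978% of the 64449 annotated genes had a control peak and 0.132% a knockdown peak. The remaining one was H3-3B, which encodes H3.3 and had a lost site covering 0.458 kb of the gene. HJURP and CENPA had no peak.

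The widest new site was chr8:128371281-128378727, 7447 bp in introns of CASC8, PCAT1 and POU5F1B and 10.9 kb from a control peak. The next in 8q24 were chr8:126785120-126788966 in LINC02964 (3847 bp), chr8:128280912-128284738 in PCAT1 (3827 bp) and chr8:128229548-128233354 in CASC19 and PCAT1 (3807 bp). The satellite features searched for were nearly absent from 8q24. None of the 318 new and 53 kept sites held a CENP-B box core or passed 50% identity over 1 alpha satellite unit, and 2 of the new sites held a GGAAT repeat (0.629%, against 0.439% of all tiles). Their median GC content was 37.7% for new and 36.2% for kept sites, and the median of all tiles was 39.9%.

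Elsewhere on the arms, 56 of the 84 new sites lay more than 1 Mb from any control peak, 32 of them in 1 run on 12p, and 19 lay within 100 kb of one. The other 9 lay on chromosome 3, which held no control peak. The median distance was 9165 kb over the 75 sites whose chromosome held a control peak, and 3583 kb over the 43 of them outside that run. Without the run, 52 of 71 arm sites were new (73.2%, 61.9% to 82.1%). In the run on 12p, 32 new sites and no control peak lay between chr12:22100580 and chr12:27279916, at the nearest 7577 kb from the centromere gap. This window was chosen after its values were seen, as the longest run of arm sites with no space over 1 Mb. Its 32 peaks covered 19961 bp of 5.18 Mb, were 195 to 1748 bp wide with a median of 527 bp, and lay a median of 110.5 kb apart. Of the 32 sites, 29 overlapped 1 or more of 13 genes, while 37.9% of all 1000-bp tiles were intergenic. Among these genes were SOX5, a transcription factor of the SOX family, and ITPR2, a calcium channel of the endoplasmic reticulum. Both are long, with annotated extents of 1033 and 497.8 kb. The 32 sites held no CENP-B box core and no GGAAT repeat, and their median GC content was 35.0%. No member of the gene lists lies in this window.
Other runs on the arms were smaller. On chromosome 4, 10 new sites lay between 190542758 and 191032350, near the end of the long arm. FRG1-DT overlapped 1 of them. On chromosome 3, 8 new sites lay between 75730407 and 75793454 at ZNF717 and LINC00960. On chromosome Y, 9 new sites and 1 kept site lay between 58968338 and 59031572. The DHX32 and FANK1 locus on chromosome 10 had 3 new and 3 kept sites, with 3.67 kb in control and 6.39 kb in the knockdown. KMT2C on chromosome 7, which encodes a histone methyltransferase and has near-identical copies elsewhere in the genome, had 3 new sites of 0.806 kb in all.

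Control sites at gene starts were lost. Of the 350 sites with a control peak, 16 had central 1000 bases that reached within 1000 bp of the start of a protein-coding or lncRNA gene, and 14 of these had no knockdown peak (87.5%, 64.0% to 96.5%). Of the 334 other sites, 61 had none (18.3%, 14.5% to 22.8%). The 2 that remained were the widened sites at PRNCR1 and POU5F1B in 8q24, so outside 8q24 all 14 were lost. This split was looked at after the values had been seen. Gene starts made up 18.7% of lost sites, 2.25% of new sites and 0.727% of kept sites, against 3.52% of all tiles.
The widest of these lost sites was chr21:15754393-15757035, 2643 bp across the start of HSPA13, a member of the HSP70 chaperone family. The next was chr1:21111100-21113558, 2459 bp at HP1BP3, which encodes a heterochromatin protein, at 41% GC. At chr17:25620322-25622294 a control peak of 1973 bp lay at WSB1. ZNF25 on chromosome 10 had 1501 bp, the shared start of PAF1 and MED29 on chromosome 19 had 1481 bp, and DCUN1D4 on chromosome 4 had 1159 bp. The lost site of 348 bp on chromosome 7 lay at the shared start of the mismatch repair gene PMS2 and AIMP2, and one of 227 bp on chromosome 16 at the deubiquitinase gene CYLD. The others lay at FAM72B, STARD7, ID2-AS1, ENSG00000266313, ENSG00000224905 and the start shared by IFT20 and TNFAIP1. Their GC content ran from 41% to 66.3%. On the arms outside 8q24 the 10 lost sites had a median GC content of 58.0% and the 84 new sites one of 36.2%.
By bases lost within a gene, PRIM2, PRIM2BP and ENSG00000290597, which overlap on chromosome 6, came first with the same 2 lost sites of 2.95 kb in all, beside 1 new site of 1.07 kb. PRIM2 encodes a primase subunit and has a near-identical copy here, so read placement there is uncertain. HP1BP3 and ZNF25 followed with 2.46 and 1.50 kb.

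New and lost sites occurred together on 18 of the 23 chromosomes with a site, and the balance of bases differed between chromosomes. Over whole chromosomes, coverage was higher in the knockdown on 16 of the 23 and lower on 7, which were 5, 6, 7, 11, 16, 17 and X. Chromosome 21 gained most after chromosome 8, from 97.5 to 152.5 kb, with 62 new sites and 22 of 33 kept sites widened. Its largest gain was at chr21:10855182-10858733, from 1159 to 3552 bp, on the GGAAT repeat printed above. At chr21:10757331-10764751 coverage went from 5216 to 7186 bp and at chr21:10730796-10736579 from 3764 to 5718 bp. Chromosome 19 went from 10.5 to 27.6 kb, with 17 new sites, 2 of which were among the 5 widest new sites outside chromosome 8. Chromosome 15 went from 3.45 to 20.3 kb and chromosome 12, through the 12p sites, from 1.32 to 21.7 kb.
Chromosome 16 lost most, from 79.5 to 49.3 kb. Its 7 lost sites covered 32.1 kb, and 3 of them were the widest lost sites of the comparison, chr16:32549157-32562320 (13164 bp), chr16:34003350-34011013 (7664 bp) and chr16:32534344-32541890 (7547 bp). Yet 15 of its 22 kept sites widened, all of them between chr16:46385797 and chr16:46435609, across the centromere gap from those 3 lost sites. The 7 that narrowed lay on both sides of the gap. On the side of the 3 lost sites, every kept site narrowed. On chromosome 7 coverage went from 81.9 to 58.8 kb, and 14 of 16 kept sites narrowed. The 5 largest losses at kept sites all lay there, led by chr7:61880851-61893443, where 11354 control bases stood against 5712 in the knockdown. At chr7:61867692-61879066 the values were 11375 and 6399 bp, at chr7:61547372-61560472 13101 and 8232 bp, at chr7:61079030-61085835 6806 and 2342 bp, and at chr7:61537154-61546236 9083 and 4754 bp. At 4 of these 5, 1 wide control peak was replaced by several narrower ones. A further 4051 bp on this chromosome, chr7:61527934-61531984, were lost outright.

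**Figure D4:**
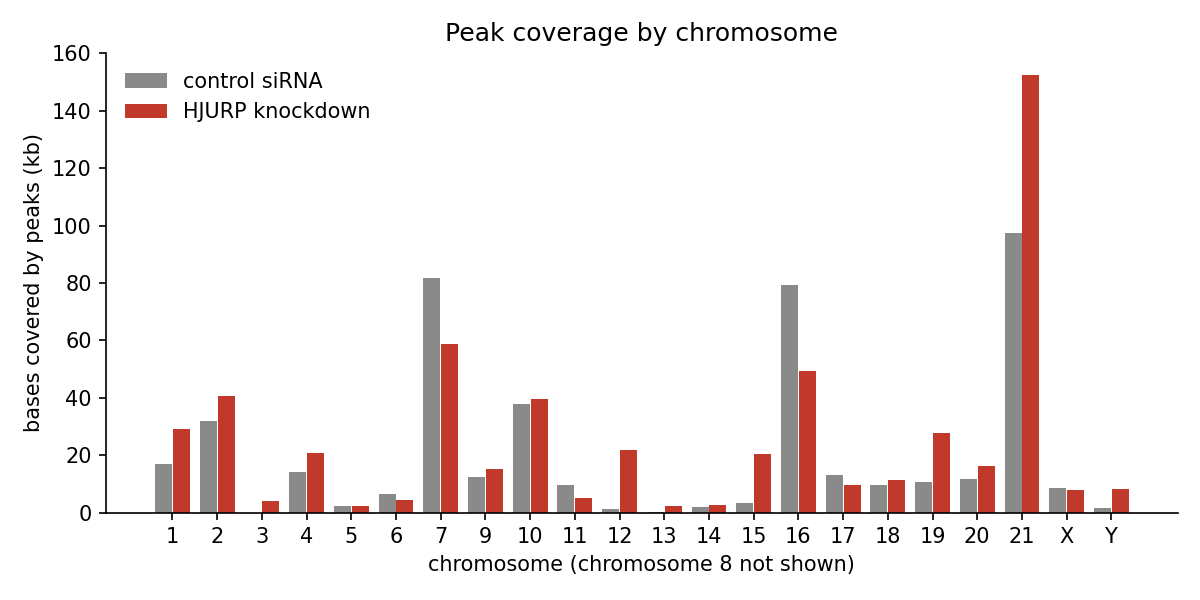
Bases covered by peaks (vertical axis, kb) on each chromosome with a site except 8, for control (grey) and HJURP knockdown (red). Chromosome 21 rises from 97.5 to 152.5 kb, while chromosomes 7 and 16 fall from 81.9 to 58.8 kb and from 79.5 to 49.3 kb.

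The share of new sites also differed with distance from the centromere gap. Outside 8q24 they made up 28.9% of 190 sites within 0.1 Mb of a gap (23.0% to 35.8%) and 55.9% of 145 sites from 0.1 to 0.5 Mb (47.7% to 63.7%). From 0.5 to 5 Mb the share lay between 46.4% and 60.5% in 3 bins, and from 5 to 20 Mb it was 91.7% of 48 sites (80.4% to 96.7%). The run on 12p gave 32 of the 44 new sites in that bin, and without it the share was 12 of 16 (50.5% to 89.8%). Beyond 20 Mb it was 72.7% of 55 sites (59.8% to 82.7%). Loss was highest among control sites 1 to 2 Mb away within the 5 Mb limit, at 43.3% of 30 (27.4% to 60.8%), and within 0.1 Mb it was 27 of 135. The median ratio at kept sites lay between 0.952 and 1.06 in the 5 bins within 5 Mb, and the bins beyond held 1 and 8 kept sites.

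Over all kept sites outside 8q24, more of those with a GGAAT repeat than of those with a CENP-B box core widened. Outside 8q24, 24 of the 81 kept sites with a CENP-B box core in their central 1000 bases widened (29.6%, 20.8% to 40.3%), and 37 of the 52 with a GGAAT repeat did (71.2%, 57.7% to 81.7%). Of the 89 with neither, 46 widened (51.7%, 41.5% to 61.8%). The CENP-B box sites lay on 17 chromosomes, the GGAAT sites on 7 and those with neither on 15. The intervals treat neighbouring sites as independent, which they are not. Bases at kept sites with a CENP-B box core summed to 118.3 kb in control and 101.8 kb in the knockdown, and those at GGAAT sites to 63.3 and 72.3 kb. Without chromosomes 7 and 21, an alternative chosen with the values in view, the shares were 30.1% of 73 and 72.1% of 43.
In the pericentromeric class 5 of 26 CENP-B box sites and 31 of 38 GGAAT sites widened. In the centromere bands 19 of 53 CENP-B box sites widened (35.8%), as did 13 of 36 without one (36.1%). Of the 14 GGAAT sites in the bands 6 widened and 8 narrowed, with a median ratio of 0.987. New sites also held fewer CENP-B box cores, with 26 of 304 outside 8q24 (8.55%) against 81 of 222 kept (36.5%) and 14 of 74 lost sites (18.9%). A GGAAT repeat was in 21.1% of new, 23.4% of kept and 10.8% of lost sites there. For kept sites of the centromere bands the CENP-B share was 59.6%, against 0.0535% of all tiles. No site held a pair of adjacent TTAGGG units, the telomere repeat, in its central 1000 bases, as 0.0271% of tiles did. Short reads from satellites map to the few copies that the assembly holds, so a peak there can stand for many copies, and the part of this in the values was not tested.

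**Figure D5:**
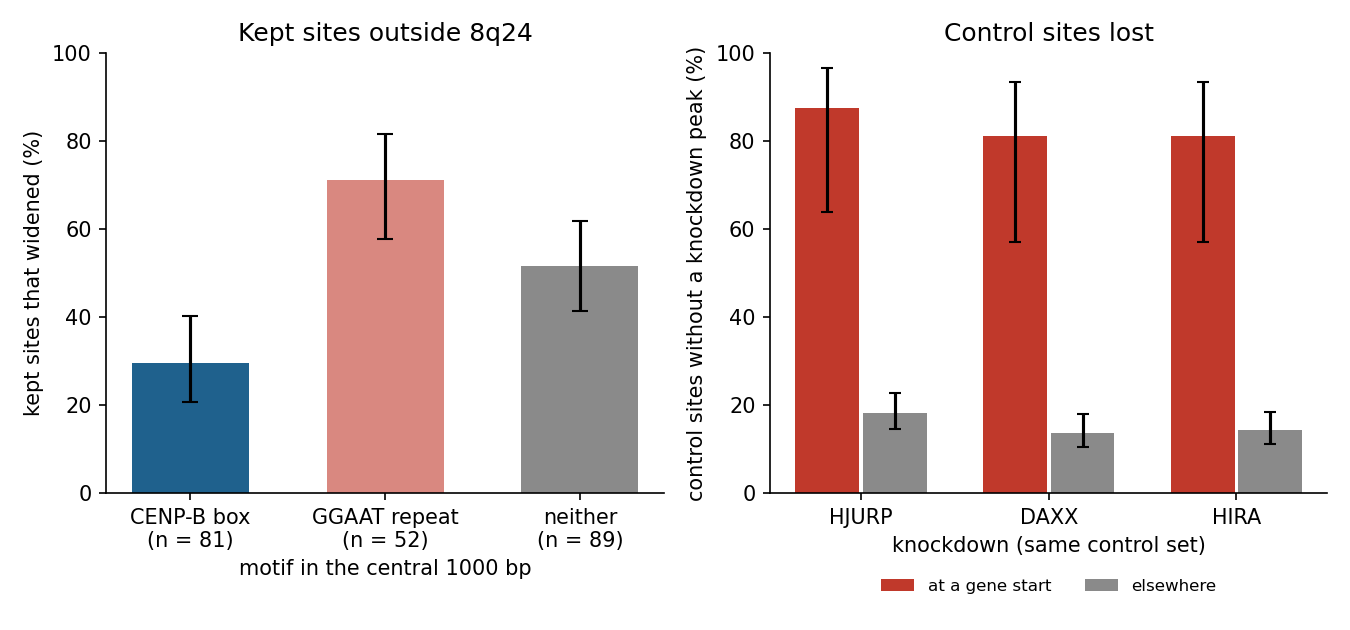
Left, share of kept sites outside 8q24 that widened in the HJURP knockdown (vertical axis, %), by motif, with 95% Wilson intervals. It was 29.6% with a CENP-B box core and 71.2% with a GGAAT repeat. Right, share of control sites with no knockdown peak (%), at gene starts (red) and elsewhere (grey), for 3 knockdowns that share 1 control list. For HJURP the values are 87.5% and 18.3%.

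The HIRA and DAXX knockdowns were each compared with the same control list, so their values stand beside those of HJURP and are not independent of them. After DAXX knockdown 66.0% of 989 sites were new, 17.0% of control sites were lost and 71.0% of kept sites widened. After HIRA knockdown 56.2% of 850 sites were new, 17.2% of control sites were lost and 51.3% of kept sites widened. In 8q24 the DAXX values were 332 new sites, all 56 kept sites widened, no site lost and a median ratio of 2.21. The HIRA values there were 98 new sites, 53 of 57 kept sites widened, 10 lost and a median ratio of 1.62. In the centromere bands 46 of 91 kept sites widened after DAXX knockdown and 25 of 92 after HIRA knockdown. The 12p window held 19 DAXX knockdown peaks with 14.7 kb and 57 HIRA knockdown peaks with 41.6 kb. The double knockdown of HIRA and DAXX had 21 peaks there with 4.975 kb, and that of HIRA and HJURP 17 with 3.369 kb. Each of these lists merges 2 ChIP libraries. Of the lists of the series, only control had no peak in the window. Of the 16 control sites at gene starts, 13 had no peak after DAXX knockdown and 13 none after HIRA knockdown. Whether these shared losses come from the control list or from the knockdowns cannot be told apart, since all 3 comparisons use that list. The new sites found after each knockdown have the same limit. The differences between knockdowns were not tested, because no list keeps its replicates apart.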

How the data were processed

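SW480 cells were profiled by native ChIP-Seq for CENP-A, with 4 ChIP and 4 input libraries for each of the HJURP, DAXX, HIRA and control groups. The authors trimmed and aligned reads to hg19 (Trimmomatic and Bowtie2 2.2.6 in the submitters' processing notes, with SAMtools, deepTools and MACS), called peaks per ChIP library against its input, merged the peaks of a group and kept those found in several replicates. The deposited lists give merged peak starts and ends in bases, with no score, signal or count. The methods give 4 replicates and a figure legend 3. Sites, widths and motifs were computed in Python 3.11.15 with numpy 2.4.6, pysam 0.24.0 and samtools 1.23.1, and checked on simulated lists. Genes were from GENCODE 44 lifted to GRCh37, and figures were drawn with matplotlib 3.10.9. Sequences were read from GRCh37, which holds the hg19 chromosomes. Every peak ended within its chromosome. Positions of centromere bands and of 8q24 were typed from general knowledge of hg19 bands, not from a supplied table. The members and lists were chosen with earlier results of these data known. Named sites were the 5 widest new and lost and the 5 largest gains and losses, also outside chromosome 8 where it held most. Named genes were the 10 with most new bases, the 5 with most lost bases and those of the 2 lists. Runs on the arms, gene starts and CENP-B boxes were named, and the values without 12p or chromosomes 7 and 21 chosen, after their values were seen. The alternatives were a 500-bp minimum width, other overlap rules, other regions and a whole-site sequence window.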

Additional observations from a re-analysis of the deposited data

How the results depend on the processing

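No paired analysis was possible because each list merges the replicates of a group, and no single replicate could be left out. Of 27 values of the whole comparison under an alternative, 17 stayed within the interval of the value reported, or within 1.5 times it where it had none, and 10 moved. The share of new sites was 56.9% with peaks within 1000 bp joined, 69.8% without peaks that touch a centromere band, 52.1% without chromosome 8 and 84.6% with only peaks more than 5 Mb from a gap, where the lost share was 15.1%. The share of kept sites that widened was 68.3% without the bands, 51.2% without chromosome 8, and 19.3% when at least 1.5 times was asked. Coverage in the knockdown exceeded control by 572.7 kb, and by 96.2 kb without chromosome 8. With protein-coding genes alone, 24 genes in place of 74 had a new site. A change of direction was looked for only in median ratios, differences in coverage and gene counts, and none occurred under these alternatives. A gene count cannot change direction. Leaving out 8q24 by itself was not among the alternatives. Outside 8q24 the median ratio at kept sites was 0.995, below 1, against 1.02 over all kept sites. Shares were sorted only into those within the interval and those that moved. Of 72 values by region or motif, 60 were within the interval and 12 moved, among them the share of new sites 5 to 20 Mb from a gap, with 12 of 16 new without the run on 12p. With peaks within 1000 bp joined, 77.4% of 8q24 sites were new and all 39 kept ones widened. With assembly gaps as the boundary, 2 sites remained in the centromere class, so the split between bands and flanks rests on the band positions. The pericentromeric class then had 102 of 211 kept sites widened (48.3%), against 71 of 124 (57.3%) with the bands as the boundary.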
